A study of Mus musculus with 24 samples.

Results

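The L1C and L2C input libraries, 6 of the 24 libraries of the series, were compared to describe how embryo RNA changed between the late 1-cell (L1C) and the late 2-cell (L2C) stage. All 6 were chosen by stage and library kind, 3 L1C inputs against 3 L2C inputs. The embryos came from superovulated wild-type B6D2F1 females (first-generation hybrids of C57BL/6J and DBA/2N) mated naturally with B6D2F1 males, and zygotes were taken from the oviduct and grown in KSOM medium to either stage. No agent or allele was added to them. An input is RNA of pooled embryos of 1 stage that was not passed over the m6A antibody. The labels name polyadenylated RNA and a stranded low-input kit, while the methods describe reverse transcription from an oligo-dT primer. The 3 inputs of MII oocytes, the unfertilized metaphase II eggs of the same strain, entered the fit and set the maternal level of each gene. In a second experiment, 3 control libraries (Ctrl) came from L2C embryos injected as zygotes with Cas13d mRNA and no guide, and their counts over exons were set beside the input levels. Nothing in the labels tells whether the 3 inputs of a stage were separate collections of embryos, so p-values measure the spread between these libraries.

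Late in the 1-cell stage the mouse embryo still lives mainly on RNA that the oocyte made, and its own genome gives a low, broad minor wave of transcripts. During the 2-cell stage the major wave of zygotic genome activation begins, led by a burst of genes and repeat families that are active at hardly any other time, while deadenylation and decay remove a second set of maternal mRNAs. Genes for ribosomes, RNA synthesis and energy use are among the known products of the major wave.

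Each input held 18969651 to 38195101 estimated counts, and the 3 Ctrl libraries held 8696476 to 14500548 exon counts. Levels are given as CPM, estimated counts scaled to a common library size (by TMM). As the libraries were made from RNA and not from a set number of embryos, CPM is a share of the RNA sequenced, and less of an RNA per embryo cannot be told apart from more of the others. The stage labels were checked against markers. Of 9 oocyte and zygote markers 8 fell and 1 (*Zp3*) rose, with summed levels of 6309.6 to 6774 CPM at L1C and 801 to 881 CPM at L2C. All 8 markers of the 2-cell embryo rose, with summed levels of 87.9 to 128 CPM at L1C and 526 to 721 CPM at L2C. These 8 are also members of the longer list of 2-cell burst genes described below, so they are counted again there. In that list *Duxf3* fell and *Tcstv1* was not called, and neither was among the 8 markers.

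Across 19903 genes tested, 8779 (44.1%) rose from L1C to L2C and 7729 (38.8%) fell at an adjusted p below 0.05. Among 15279 protein-coding genes, 6759 (44.2%) rose and 6008 (39.3%) fell. Of these, 5791 (37.9% of those tested) rose and 4719 (30.9%) fell by more than 2-fold, 2705 rose and 1030 fell by more than 8-fold, and 967 rose and 108 fell by more than 32-fold. The steep changes were therefore mostly increases, although the counts of both directions were close. The median log2 change of all genes was 0.17 under TMM, and it was 0.26 with library size alone and 0.30 with DESeq2 size factors, so each change is best read against a centre that moves by that much.

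**Figure D1:**
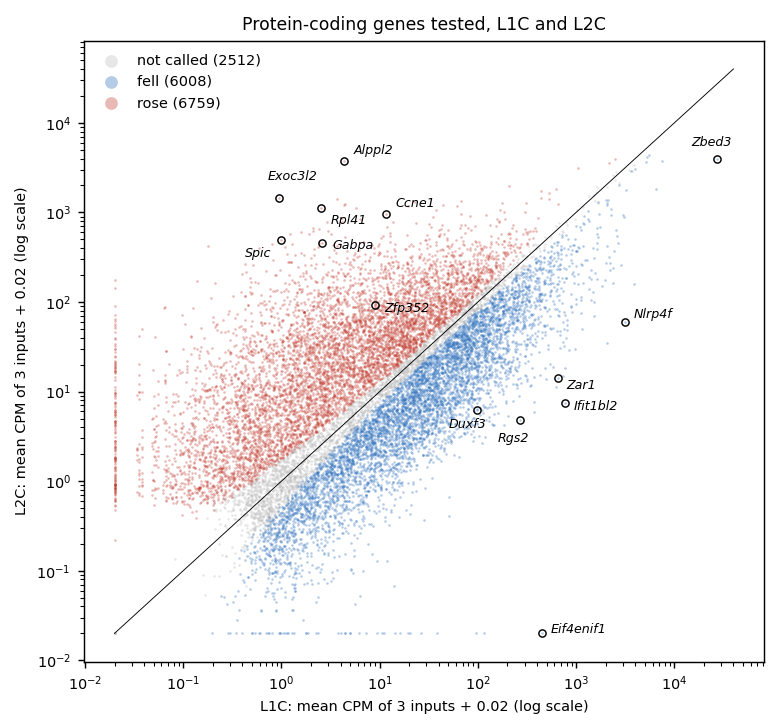
Mean CPM of the 3 L1C inputs (x axis) against the 3 L2C inputs (y axis) for the 15279 protein-coding genes tested, both log axes with 0.02 added. Red points rose, blue points fell and grey points were not called, and the line marks equal levels. Alppl2 stands at 4.35 CPM at L1C and 3751 at L2C, and Zbed3 at 26971 and 3953.

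The protein-coding genes that rose with the smallest p-values went from near silence to abundant mRNA. *Exoc3l2*, of the exocyst subunit 3 family, had 1.18, 0.882 and 0.701 CPM in the L1C inputs and 1371, 1502 and 1436 in the L2C inputs, an increase of 1525-fold (log2 change 10.57 ± 0.21 SE, n = 3 per stage, edgeR adjusted p = 3.13e-13). *Alppl2*, an alkaline phosphatase of early embryos and germ cells, had 3.68, 5.38 and 3.99 CPM in the L1C inputs and 3535, 4210.1 and 3508 in the L2C inputs (log2 change 9.75 ± 0.20). The 3 L2C values of both genes lay close together and far above every L1C value, and *Alppl2* stood among the 5 protein-coding genes with the highest mean CPM at L2C. *Selenos*, a selenoprotein of the endoplasmic reticulum, rose from 1.4, 1.67 and 1.67 to 551, 636 and 621 CPM. *Spic*, a transcription factor of the Ets family, rose from 1.1, 0.789 and 1.02 to 469, 458 and 540.1 CPM. *Btbd18*, a BTB-domain nuclear protein, and *Calcoco2*, a receptor of selective autophagy, rose by 8.32 and 9.32 on the log2 scale. At MII the means of these 6 genes ranged from 0.0144 CPM for *Calcoco2* to 2.45 CPM for *Alppl2*.

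The mRNAs that fell with the smallest p-values were all present in the MII oocyte as well. *Ifit1bl2*, of the interferon-induced tetratricopeptide family, had 822, 769.5 and 714 CPM in the L1C inputs and 7.67, 7.85 and 7.01 in the L2C inputs, a decrease of 102-fold (log2 change -6.68 ± 0.14 SE, n = 3 per stage, edgeR adjusted p = 3.75e-13). Its mean at MII was 145 CPM, below that of L1C. *Rgs2*, a regulator of G-protein signalling in the egg, had 282, 232 and 283 CPM in the L1C inputs and 4.63, 4.9 and 4.83 in the L2C inputs (log2 change -5.79 ± 0.15). *Neil3*, a DNA glycosylase of base excision repair, had 388, 310.0 and 342 CPM in the L1C inputs and 11.9, 12.1 and 11.9 in the L2C inputs. *Rnf219*, a ring finger protein that binds the CCR4-NOT deadenylase, fell from 95, 87.7 and 92 to 3.11, 3.09 and 3.16 CPM, and *A430033K04Rik* fell by 5.61 on the log2 scale. No L2C value of these 5 genes came near the lowest L1C value.

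The genes of the 2-cell burst rose almost together. Of 34 members 33 were tested, and 31 rose, 1 fell and 1 was not called, with a median log2 change of 2.93 beside 0.17 for all genes. The shares risen and fallen were 93.9% and 3.03%, against 44.1% and 38.8% of all genes. *Zfp352*, a zinc finger gene used as a reporter of the burst, had 10.7, 8.54 and 7.49 CPM in the L1C inputs and 97.8, 73.4 and 108 in the L2C inputs (log2 change 3.38 ± 0.20 SE, edgeR adjusted p = 1.02e-09). *Zscan4d*, of the telomere-protecting Zscan4 cluster, had 40.3, 32.1 and 26.7 CPM in the L1C inputs and 106, 66.4 and 111 in the L2C inputs (log2 change 1.52 ± 0.20). *Usp17lc*, a deubiquitinase, had 23, 15.1 and 20.5 CPM in the L1C inputs and 101, 109.8 and 119.7 in the L2C inputs. These 3 genes were already present at L1C at levels far above MII, where their means were 0.291, 1.2 and 0.101 CPM. Steeper increases came from other members. *Tdpoz5*, a BTB-domain gene, rose from 0.423, 0.464 and 0.323 to 106, 124 and 122 CPM, and *Usp17lb* rose from 13.9, 11.5 and 13.1 to 439, 457 and 515 CPM. The member that fell was *Duxf3* (Dux), the homeobox activator known to switch on the others, with 79.5, 117 and 101 CPM in the L1C inputs and 6.08, 6.14 and 6.58 in the L2C inputs (log2 change -3.98 ± 0.20, edgeR adjusted p = 1.98e-10). Its MII mean was 0.367 CPM, so among the 3 stages it was highest at L1C. *Tcstv1* was the member not called (log2 change -0.12). Many members belong to families of near-identical copies, between which the counting may have divided reads, so single values within a family are uncertain.

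Among early zygotic transcription factors both directions were called. Of 26 members 23 were tested, of which 15 rose, 6 fell and 2 were not called (median log2 change 2.38). Of the list 65.2% rose and 26.1% fell, beside 44.1% and 38.8% of all genes. *Gabpa*, an Ets-family activator of housekeeping genes, had 3.51, 1.62 and 2.59 CPM in the L1C inputs and 459.7, 410.3 and 485 in the L2C inputs (log2 change 7.44 ± 0.22 SE, edgeR adjusted p = 2.10e-12). *Zscan5b*, a zinc finger factor of the early embryo, had 3.93, 4.08 and 5.23 CPM in the L1C inputs and 239.8, 331 and 251 in the L2C inputs. Among the 6 that fell were *Gata3*, later a trophectoderm factor, with 34.5, 39.3 and 38.8 CPM in the L1C inputs and 5.2, 4.81 and 4.43 in the L2C inputs, and the oocyte homeobox gene *Obox5*, with 708, 543 and 572 CPM in the L1C inputs and 84.5, 69.1 and 96.8 in the L2C inputs. Both were maternal RNAs, with MII means of 77.1 and 601 CPM. *Klf17*, a maternal and early zygotic Kruppel-like factor, had 978 ± 133 CPM at L1C and 504 ± 60.0 CPM at L2C (mean ± SD, n = 3; log2 change -0.96 ± 0.15).

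Promoters are printed for 6 named genes that rose or fell, from RefSeq on GRCm38.p6, each running from 250 bases before to 50 bases after the annotated start and written 5′ to 3′ on the gene's strand. Capitals mark matches, on either strand, to TATAAA (the TATA box), GGATTA (the core of homeobox sites of the Obox kind) and CCGGAAG (an Ets-type site), none of which overlaps another in these windows. *Alppl2*, among the steepest increases, and the burst genes *Usp17lc* and *Zscan4d* are shown first. Of the 15279 protein-coding genes tested 11968 matched a promoter, 11753 by symbol and 215 by synonym. Of all 32851 promoters of this length in the RefSeq table, 13.6% hold TATAAA, 7.06% hold GGATTA and 8.86% hold CCGGAAG.
Alppl2, chr1:87089879-87090178, minus strand: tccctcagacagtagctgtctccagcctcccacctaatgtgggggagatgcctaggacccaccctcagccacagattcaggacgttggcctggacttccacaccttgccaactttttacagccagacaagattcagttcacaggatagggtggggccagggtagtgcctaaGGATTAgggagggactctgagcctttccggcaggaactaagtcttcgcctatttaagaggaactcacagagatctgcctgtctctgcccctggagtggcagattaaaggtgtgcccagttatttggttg
Usp17lc, chr7:103416446-103416745, plus strand: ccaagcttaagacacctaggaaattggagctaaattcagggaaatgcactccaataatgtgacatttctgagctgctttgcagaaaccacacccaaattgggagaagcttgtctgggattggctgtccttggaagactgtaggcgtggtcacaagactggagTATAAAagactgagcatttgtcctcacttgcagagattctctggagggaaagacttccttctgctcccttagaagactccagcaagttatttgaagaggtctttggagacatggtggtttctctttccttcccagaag
Zscan4d, chr7:11166099-11166398, minus strand: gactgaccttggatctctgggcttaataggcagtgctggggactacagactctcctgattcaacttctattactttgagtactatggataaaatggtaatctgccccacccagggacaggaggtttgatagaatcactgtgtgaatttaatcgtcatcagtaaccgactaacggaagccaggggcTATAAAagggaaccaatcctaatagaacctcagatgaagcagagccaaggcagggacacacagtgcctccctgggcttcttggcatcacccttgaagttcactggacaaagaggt
The windows of *Alppl2*, *Usp17lc* and *Zscan4d* held 3, 1 and 3 CG dinucleotides. Only 18 of 32 protein-coding burst genes tested matched a RefSeq promoter, under 80%, so no share of motifs is given for that list.

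Nearly all genes for cytosolic ribosomal proteins rose. Of 79 cytosolic ribosomal protein genes, 77 rose, 1 fell and 1 was not called, shares of 97.5% and 1.27%, against 44.1% and 38.8% of all genes. Their median log2 change was 4.39, or 4.18 with members at 3 counts or fewer in every L1C input set at their bound. The summed level of the 79 genes was 124 to 143 CPM in the L1C inputs and 2379 to 2851 CPM in the L2C inputs, and 133 to 181 CPM at MII. *Rpl41*, the smallest ribosomal protein, had 1.48, 2.92 and 3.18 CPM in the L1C inputs and 999.9, 1412 and 972 in the L2C inputs (log2 change 8.82 ± 0.28 SE, edgeR adjusted p = 3.29e-12), and *Rps3*, at the mRNA entry of the small subunit, had 0.508, 0.557 and 0.97 CPM in the L1C inputs and 74.5, 100.1 and 75.2 in the L2C inputs. *Rpl17* was the gene that fell, with 33.5, 28.2 and 22.3 CPM in the L1C inputs and 2.67, 1.95 and 4.13 in the L2C inputs over its gene span, although its exon counts in the Ctrl L2C libraries averaged 116 CPM and its span overlaps another gene. All 79 genes had at least 1 exon CPM in those libraries. Ribosomal protein genes have many processed copies in the genome, which may have taken part of their reads.

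Ribosome biogenesis and nucleolar genes followed, with 67 of 74 tested risen and 4 fallen (median log2 change 2.38), shares of 90.5% and 5.41%, against 44.1% and 38.8% of all genes (1 of the 4 fell by more than 2-fold). *Nop2*, an rRNA methyltransferase, had 3.55, 4.08 and 4.74 CPM in the L1C inputs and 733, 837 and 751 in the L2C inputs (log2 change 7.56 ± 0.17 SE, edgeR adjusted p = 5.06e-13). *Nop16*, a nucleolar factor of the large subunit, had 1.73, 1.81 and 1.51 CPM in the L1C inputs and 302, 384 and 329.7 in the L2C inputs. The 4 that fell were led by *Bms1*, a GTPase of small subunit assembly, with 308, 289 and 336 CPM in the L1C inputs and 57.7, 67.5 and 63.6 in the L2C inputs, while *Mphosph10* of the same processome had 135, 105 and 104 CPM in the L1C inputs and 70.1, 58.6 and 73 in the L2C inputs. Of 48 translation initiation factor genes 38 rose and 7 fell (median 2.14), shares of 79.2% and 14.6%, against 44.1% and 38.8% of all genes (3 of the 7 fell by more than 2-fold). *Eif3g*, a subunit of eIF3, had 4.19, 6.13 and 5.18 CPM in the L1C inputs and 141, 172 and 148 in the L2C inputs, and *Eif3c* of the same complex had 18.9 ± 0.227 CPM at L1C and 277 ± 26.3 CPM at L2C. The oocyte form of the cap-binding protein, *Eif4e1b*, fell from 511, 497 and 646 to 40.6, 59.3 and 48.3 CPM, and *Eif1b*, a paralog of the start-codon factor, fell from 150.1, 146 and 169 to 20.6, 19.6 and 23.9 CPM. Mean levels of *Eif4e1b* and *Eif1b* at MII were 544 and 114 CPM.

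The promoters of *Rpl41* and *Nop2* are shown because both lists rose nearly as a whole, and each window held an Ets-type match upstream of the start.
Rpl41, chr10:128549119-128549418, minus strand: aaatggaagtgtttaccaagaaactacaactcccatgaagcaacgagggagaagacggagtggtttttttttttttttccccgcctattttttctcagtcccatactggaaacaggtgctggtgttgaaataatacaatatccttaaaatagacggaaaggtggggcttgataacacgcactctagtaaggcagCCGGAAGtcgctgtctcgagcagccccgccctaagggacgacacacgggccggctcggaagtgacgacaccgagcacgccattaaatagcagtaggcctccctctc
Nop2, chr6:125131633-125131932, plus strand: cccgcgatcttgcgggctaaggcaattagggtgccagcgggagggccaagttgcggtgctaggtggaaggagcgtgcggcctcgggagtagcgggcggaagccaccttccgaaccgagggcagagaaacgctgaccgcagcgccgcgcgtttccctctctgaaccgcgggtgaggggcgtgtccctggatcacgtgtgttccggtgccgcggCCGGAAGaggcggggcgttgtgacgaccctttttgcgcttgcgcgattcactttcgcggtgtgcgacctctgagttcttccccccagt
These 2 windows held 16 and 35 CG dinucleotides. Of 66 ribosome biogenesis genes with a RefSeq promoter (89.2% of those tested), 28 (42.4%) held CCGGAAG, beside 20 of 63 splicing factor genes (31.7%), 15 of 41 proteasome genes (36.6%) and 8.86% of all promoters. The share was 16.2% among all tested protein-coding genes with an entry, which were 78.3% of those tested. By call, also with entries for under 80% of genes, it was 18.9% for genes that rose and 14.2% for those that fell. It was 14.3% for increases over 32-fold and 22% for those under 2-fold. For decreases it was 9.8% over 8-fold and 18.1% under 2-fold. In the other lists with entries for at least 80% of genes it was 27.3% for RNA polymerase II and elongation, 27% for mRNA decay and poly(A) control, 23.8% for oxidative phosphorylation, 10.5% for maternal chromatin and storage factors, 6.67% for glucose use and 0% for the subcortical maternal complex and NLRP genes. Of the ribosomal protein genes 58 of 79 had an entry, under 80%, so their share is not given. A match is a description of these letters and not a measured site.

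Of 54 RNA polymerase II subunit and elongation genes 42 rose, 9 fell and 3 were not called (median log2 change 1.66). The shares risen and fallen were 77.8% and 16.7%, against 44.1% and 38.8% of all genes. *Cdk9*, the kinase that releases paused polymerase, had 2.28, 4.13 and 2.8 CPM in the L1C inputs and 126, 136 and 132 in the L2C inputs (log2 change 5.41 ± 0.21 SE, edgeR adjusted p = 1.60e-11), and *Aff4*, a scaffold of the super elongation complex, had 4.02, 4.32 and 3.83 CPM in the L1C inputs and 61.4, 54.2 and 60.0 in the L2C inputs. Among the 9 that fell were *Tbpl2*, the TATA-binding protein paralog of the growing oocyte, with 47.3, 36.7 and 36.7 CPM in the L1C inputs and 4.29, 2.71 and 3.62 in the L2C inputs, and the initiation factor *Gtf2b*, with 77.3, 75.7 and 73.2 CPM in the L1C inputs and 20.1, 21.2 and 20.4 in the L2C inputs. Among splicing factors, of 71 genes 46 rose, 11 fell and 14 were not called (median 1.06), shares of 64.8% and 15.5%, against 44.1% and 38.8% of all genes (4 of the 11 fell by more than 2-fold). *Snrnp35* of the minor spliceosome had 0.973, 1.39 and 0.916 CPM in the L1C inputs and 133, 149 and 134 in the L2C inputs, and Snrpc of U1 had 3.17, 4.5 and 3.83 CPM in the L1C inputs and 86.7, 106 and 94.8 in the L2C inputs. *Prpf6* and *Snrnp27*, both of the tri-snRNP, fell by 2.53 and 2.36 on the log2 scale. Of 49 proteasome genes tested 28 rose and 13 fell (median 0.86), shares of 57.1% and 26.5%, against 44.1% and 38.8% of all genes (7 of the 13 fell by more than 2-fold). *Psmb5*, a catalytic subunit, had 1.9 ± 0.372 CPM at L1C and 76.2 ± 4.24 CPM at L2C and *Psmb1* of the same ring had 14.7 ± 1.0 CPM at L1C and 125 ± 8.08 CPM at L2C, while *Psma7* of the outer ring fell from 383, 463 and 512 to 34.9, 45.4 and 38.3 CPM and the inhibitor *Psmf1* from 151, 181 and 182 to 21.3, 19.5 and 18.4 CPM (mean ± SD, n = 3 where given).

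All 13 mitochondrial mRNAs rose, by 1.08 to 3.21 on the log2 scale (median 1.59), beside 44.1% risen among all genes. mt-Cytb, of complex III, had 682, 518 and 386 CPM in the L1C inputs and 2071, 1225 and 1681 in the L2C inputs (log2 change 1.65 ± 0.21 SE, edgeR adjusted p = 3.87e-06), and *mt-Nd4l*, of complex I, had 7.49, 8.4 and 3.5 CPM in the L1C inputs and 31.2, 20.8 and 33.8 in the L2C inputs. The L1C and L2C values of both did not overlap. Of 75 nuclear genes for oxidative phosphorylation tested 51 rose, 13 fell and 11 were not called (median 1.57). The shares risen and fallen were 68% and 17.3%, against 44.1% and 38.8% of all genes. *Ndufs8* and *Ndufa2*, both of complex I, had 9.01 ± 1.43 CPM at L1C and 131 ± 11.4 CPM at L2C and 7.13 ± 2.1 CPM at L1C and 126 ± 3.74 CPM at L2C. *Ndufa10*, also of complex I, fell from 165, 158 and 188 to 12.3, 15.4 and 15.1 CPM, and *Uqcrc2* of complex III fell from 131, 107 and 126 to 14.4, 16.2 and 19 CPM. Members of 1 complex thus moved in opposite directions.

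Genes for the use of glucose, pyruvate and lactate, on the last 2 of which the zygote depends, were near the background. Of 33 genes 17 rose and 12 fell (median log2 change 0.71), so that 51.5% rose and 36.4% fell, beside 44.1% and 38.8% of all genes. The lactate dehydrogenase gene *Ldhb* had 808, 909 and 995 CPM in the L1C inputs and 69.4, 81.3 and 82 in the L2C inputs (log2 change -3.54 ± 0.14 SE, edgeR adjusted p = 1.86e-11), and *Pdp1*, a phosphatase that activates pyruvate dehydrogenase, fell from 129, 105 and 103 to 11.3, 9.8 and 10.3 CPM. The glucose transporter gene *Slc2a3* rose from 2.16, 3.11 and 3.29 to 57.6, 66.6 and 61.3 CPM and the glycolytic mutase *Pgam1* from 7.23, 6.82 and 6.74 to 76.9, 76.6 and 88.2 CPM. Of 22 heat shock genes 10 rose and 7 fell (median 0.21), shares of 45.5% and 31.8%, against 44.1% and 38.8% of all genes (2 of the 7 fell by more than 2-fold). *Hspa5*, the chaperone of the endoplasmic reticulum, had 175, 186 and 167 CPM in the L1C inputs and 1278, 1085 and 1479.7 in the L2C inputs and *Hspb1*, a small heat shock protein, had 1.65 ± 0.551 CPM at L1C and 63.5 ± 10.3 CPM at L2C. *Hspa4l* fell from 38.1 ± 3.02 to 7.85 ± 0.617 CPM, and *Dnajb1* from 517 ± 71.8 to 265 ± 30.6 CPM.

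Among 36 genes of M phase, the spindle checkpoint and meiosis, 13 rose, 18 fell and 5 were not called (median log2 change -0.47). Of the list 36.1% rose and 50.0% fell, beside 44.1% and 38.8% of all genes. *Mos*, the kinase of metaphase II arrest, had a MII mean of 141 CPM and 8.46, 12.3 and 11.5 CPM in the L1C inputs and 3.85, 3.71 and 4.63 in the L2C inputs. *Fbxo43* (Emi2), an inhibitor of the anaphase-promoting complex in the same arrest, had 328, 286 and 307 CPM in the L1C inputs and 28, 32.6 and 28 in the L2C inputs (log2 change -3.38 ± 0.12 SE, edgeR adjusted p = 1.03e-11). *Ccnb1*, cyclin B1, had 1685, 1371 and 981 CPM in the L1C inputs and 219.8, 161 and 195 in the L2C inputs, and *Ttk*, a checkpoint kinase, fell from 727, 562 and 624 to 49.8, 41.8 and 49.3 CPM. *Cdk1*, the mitotic kinase, rose from 50.5, 41.2 and 52.9 to 408, 428 and 436 CPM with a MII mean of 2.32 CPM, and the phosphatase gene *Cdc25c* rose from 5.46, 6.64 and 6.85 to 202, 193 and 224 CPM. Of 26 DNA replication licensing genes 11 rose and 10 fell (median 0.18), close to the background (42.3% rose and 38.5% fell, beside 44.1% and 38.8% of all genes). With a change of more than 2-fold 8 of the 26 rose and 4 fell, both smaller shares than the 37.9% and 30.9% of protein-coding genes. *Ccne1*, cyclin E1, had 10.7, 11.5 and 12.9 CPM in the L1C inputs and 843, 1083 and 959 in the L2C inputs (log2 change 6.36 ± 0.15, edgeR adjusted p = 5.75e-13), followed by *Gins3* of the replicative helicase at 12.4 ± 0.633 CPM at L1C and 122 ± 11.8 CPM at L2C. *Orc5* and *Orc3*, of the origin recognition complex, fell by 3.04 and 1.86.

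The subcortical maternal complex, a protein assembly under the egg surface, and the oocyte NLRP genes fell in every member. All 16 genes fell, by 1.43 to 5.71 on the log2 scale (median -3.33), beside 38.8% fallen among all genes. *Ooep*, a core member of the complex, had 156, 143 and 180.0 CPM in the L1C inputs and 5.3, 6.33 and 5.47 in the L2C inputs (log2 change -4.81 ± 0.15 SE, edgeR adjusted p = 3.16e-12). *Nlrp4f* had 3847, 2994 and 2601 CPM in the L1C inputs and 66, 46.6 and 66.9 in the L2C inputs (log2 change -5.71 ± 0.20), and *Nlrp5* (MATER), a gene required from the mother for cleavage, had 1823, 1452 and 1605 CPM in the L1C inputs and 171, 172 and 203 in the L2C inputs. *Zbed3*, also of the complex, was the most abundant protein-coding feature at L1C and fell from 22472, 28708 and 29733 to 3482, 4261 and 4117 CPM. Its exon counts at L2C averaged 386 CPM in the Ctrl libraries. At MII the means were 49303 CPM for *Zbed3*, 2466 CPM for *Nlrp4f* and 961 CPM for *Nlrp5*.

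Of 28 zona and oocyte growth genes 23 fell and 5 rose (median log2 change -2.69). The shares risen and fallen were 17.9% and 82.1%, against 44.1% and 38.8% of all genes. *Bmp15* and *Gdf9*, the growth factors by which the oocyte directs its follicle, had 3069.6, 2702 and 2731 CPM in the L1C inputs and 277, 262 and 242 in the L2C inputs (log2 change -3.44 ± 0.12 SE, edgeR adjusted p = 6.50e-12) and 526 ± 78.5 CPM at L1C and 82.6 ± 13.7 CPM at L2C. At MII *Gdf9* had 4226 CPM and *Bmp15* 2331 CPM. *Oas1e*, an oocyte member of the oligoadenylate synthetase family, fell from 2022, 1746 and 2438 to 29.1, 39.3 and 35.5 CPM. The 5 that rose included *Zp3*, the sperm receptor of the zona pellucida, with 44, 61.5 and 61.8 CPM in the L1C inputs and 114, 136 and 121 in the L2C inputs, and the neighbouring oocyte genes *Omt2a* and *Omt2b*, at 619.5 ± 58.9 CPM at L1C and 1822 ± 209.7 CPM at L2C and 1050.5 ± 71.2 CPM at L1C and 3138 ± 429 CPM at L2C. *Zp3* at L2C stayed below its MII mean of 159 CPM. *Tcl1*, an activator of AKT that is rich in oocytes, fell from 6869, 6571 and 8995 to 3209.9, 4584 and 3415 CPM.
Bmp15, chrX:6320675-6320974, minus strand: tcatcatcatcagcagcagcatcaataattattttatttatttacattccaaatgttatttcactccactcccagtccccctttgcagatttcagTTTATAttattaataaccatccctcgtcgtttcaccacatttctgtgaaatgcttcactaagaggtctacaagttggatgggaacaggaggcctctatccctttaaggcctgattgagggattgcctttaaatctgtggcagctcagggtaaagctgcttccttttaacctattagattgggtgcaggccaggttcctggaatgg
The *Bmp15* promoter is shown as that of a maternal gene that fell steeply, and it held 2 CG dinucleotides and 1 TATAAA match on the opposite strand. Of the 15 protein-coding members of the subcortical complex and NLRP list 14 had a RefSeq promoter, and 1 of these had an observed over expected CpG ratio above 0.6, beside 35.8% of all promoters and 65.4% of those of all tested protein-coding genes with an entry.

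Markers of other cells that could accompany eggs and embryos were also counted. Of 14 cumulus and granulosa cell markers 9 were tested, of which 7 fell, 1 rose and 1 was not called (shares risen and fallen 11.1% and 77.8%, against 44.1% and 38.8% of all genes). Their summed level was 62.1 to 69.5 CPM at MII, 37.9 to 40.0 at L1C and 247 to 268 at L2C, the last mostly from *Amhr2* (named after its values were seen), which rose from 1.56, 1.76 and 1.83 to 242, 263 and 263 CPM. The other 5 markers were below the filter, with highest estimated counts in any L1C or L2C input of 0 for *Ptx3* and *Col3a1*, 1 for *Foxl2*, 4.0 for Col1a2 and 26.4 for Has2. The part of these markers in the oocyte lists was not tested. Sperm transcripts were tested for 2 of 8 genes, with summed levels of 2.86 to 2.92 CPM at L1C and 55.6 to 73.7 at L2C, nearly all of it *Prm1*, which had no exon count in any Ctrl library. The 5 oviduct markers summed to 0.55 to 1.67 and 6.14 to 8.73 CPM, and the 5 blood markers to 0.743 to 0.863 and 8.38 to 11.6 CPM, the latter almost all *Hba-a1*. Hbb-bs, Hbb-bt and *Alas2* were at 0 in all 6 inputs.

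Of 22 maternal chromatin and storage factors 12 fell and 8 rose (median log2 change -0.67). Of the list 36.4% rose and 54.5% fell, beside 44.1% and 38.8% of all genes (5 of the 8 rose by more than 2-fold). *Zar1*, a storage factor of maternal mRNA, had 486, 804 and 659.6 CPM in the L1C inputs and 13.3, 13.3 and 15.4 in the L2C inputs (log2 change -5.53 ± 0.19 SE, edgeR adjusted p = 6.50e-12). *Zfp57*, which keeps imprints, fell from 1708, 1768 and 2078 to 142, 159.9 and 148 CPM, and *Dnmt1*, the maintenance DNA methyltransferase, from 176, 184 and 223 to 114, 133 and 116 CPM. *Trim28* (KAP1), a corepressor that acts with zinc finger proteins such as *Zfp57*, rose from 5.79, 5.89 and 7.65 to 86.2, 109 and 82.5 CPM, and the arginine methyltransferase gene *Prmt5* rose from 10.3, 7.75 and 12.9 to 128, 183 and 144 CPM. Both were lower at L1C than their MII means of 28.6 and 25.5 CPM.

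Of 45 genes of mRNA decay and poly(A) control 22 fell, 19 rose and 4 were not called (median log2 change -0.30). Of the list 42.2% rose and 48.9% fell, beside 44.1% and 38.8% of all genes, so the counts are near the background. *Btg4*, the adaptor that brings CCR4-NOT to maternal mRNA, had 1492, 1572 and 1489.6 CPM in the L1C inputs and 319, 288 and 332 in the L2C inputs (log2 change -2.28 ± 0.11 SE, edgeR adjusted p = 1.30e-10), and the decapping activator *Dcp1a* fell from 629, 652 and 721 to 67.5, 73.3 and 67.3 CPM. The nuclear poly(A)-binding proteins exchanged rank. *Pabpn1l*, the oocyte form, had 310.2, 386 and 433 CPM in the L1C inputs and 5.88, 6.85 and 4.99 in the L2C inputs (log2 change -6.01 ± 0.18), and *Pabpn1*, the general form, had 2.66, 2.83 and 4.15 CPM in the L1C inputs and 516, 647 and 575 in the L2C inputs (log2 change 7.50 ± 0.20). *Cnot10*, of the same deadenylase complex, rose from 11.5, 10.3 and 13.4 to 140.4, 149 and 157 CPM. Of 18 m6A writers, erasers and readers tested, 10 rose and 8 fell (median 0.69), so that 55.6% rose and 44.4% fell, beside 44.1% and 38.8% of all genes. *Ythdf2*, a cytoplasmic reader that promotes decay, had 51.6, 55.1 and 52.5 CPM in the L1C inputs and 344, 295 and 378 in the L2C inputs (log2 change 2.68 ± 0.13, edgeR adjusted p = 9.95e-11), and the reader *Igf2bp1* rose from 3.6, 3.76 and 3.02 to 69.4, 77.8 and 74.3 CPM. *Ythdf3* fell from 476, 456 and 387 to 136, 105 and 117 CPM and the methyltransferase *Mettl3* from 101, 86.7 and 110.5 to 16.9, 20.1 and 16.5 CPM. *Ythdc1*, the nuclear reader, had 12.5, 10.6 and 9.65 CPM in the L1C inputs and 21, 15.6 and 19.6 in the L2C inputs (log2 change 0.78 ± 0.17) over its gene span. That span overlaps another gene, and the exon counts of *Ythdc1* in the Ctrl L2C libraries averaged 414 CPM.

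**Figure D2:**
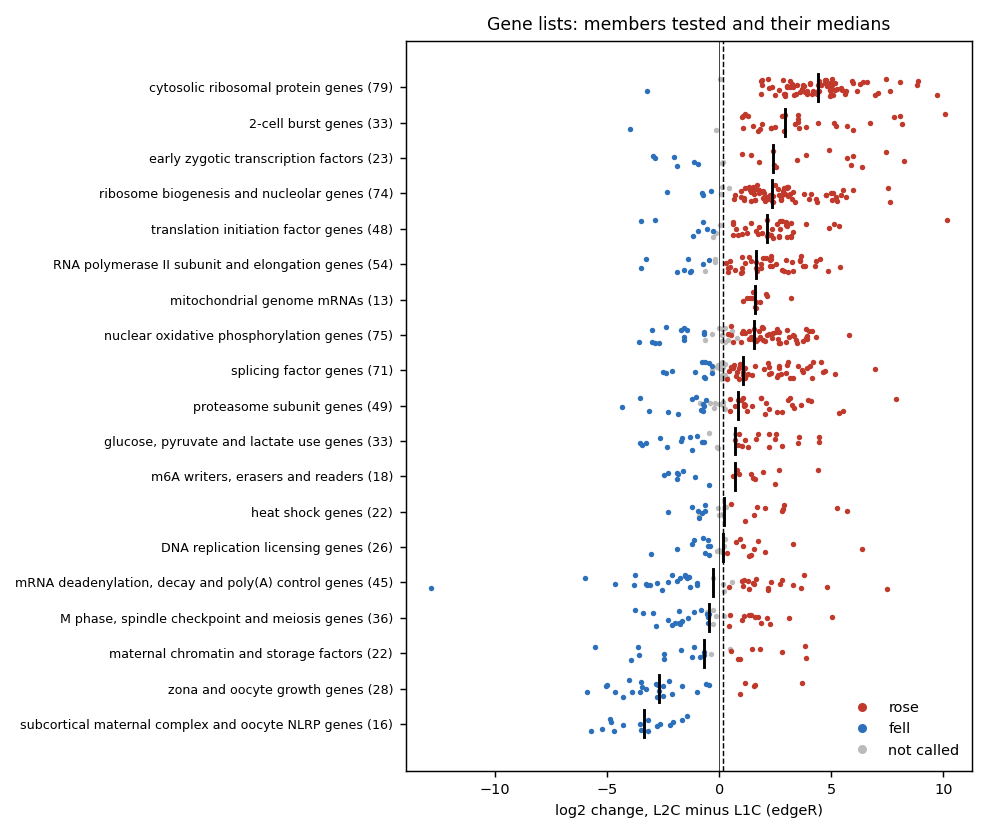
Log2 change from L1C to L2C (x axis) of the tested members of 19 gene lists (y axis, number tested in brackets), each point a gene, red if it rose, blue if it fell and grey if not called. The short black line is the list's median and the dashed line the median of all genes, 0.17, with genes at 0 in a stage drawn at fitted values that are no bound. Ribosomal protein genes are centred at 4.39 and the subcortical maternal complex and NLRP genes at -3.33.

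**Figure D3:**
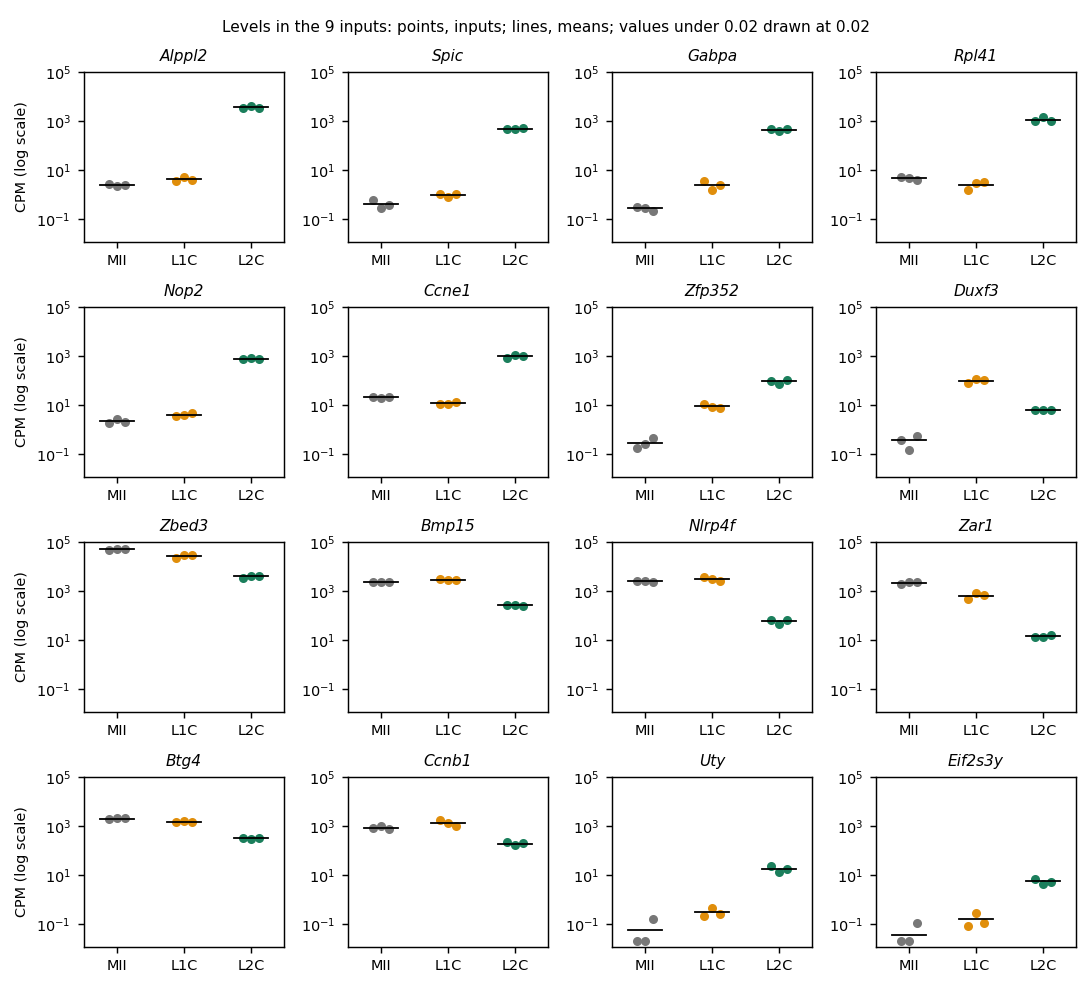
CPM on a log axis in the 3 MII, 3 L1C and 3 L2C inputs for 16 genes, each point 1 input and each line a mean, with values under 0.02 drawn at 0.02. Points of 1 stage lie close together, and Alppl2, Spic, Gabpa, Rpl41, Nop2 and Ccne1 are high only at L2C among the 3 stages. Duxf3 is highest at L1C.

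The direction of change was set beside the level of each gene in the MII oocyte, which did not enter the contrast. The share of genes that fell was larger in each higher class. Of 1236 protein-coding genes with at most 3 estimated counts in every MII input, 1049 (84.9%) rose and 31 (2.51%) fell. The small number that fell was not stable, at 49 without L1C replicate 2, at 56, 63 and 54 without L2C replicates 1, 2 and 3, and at 85 with DESeq2. For the 1236 genes the median log2 change was 3.64, or 3.23 with genes at the floor of 3 counts in every L1C or L2C input set at their bound. Such a gene entered the test mainly when it was present at L1C or L2C (1236 of 6933 did), so its share that rose is a description. Above that floor and below 1 TPM, 46.6% of 5071 genes rose and 31.7% fell. At 1 to 10 TPM the shares were 41.7% and 44.2% of 4773 genes, and at 10 to 100 TPM 34.5% and 51.7% of 3240. Of 959 genes at 100 TPM or more at MII, 24.7% rose and 61.2% fell (median -0.81). Even so, 237 of these most abundant maternal mRNAs rose as a share of the RNA sequenced, 154 of them by more than 2-fold.

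The share of the mRNA pool held by each of these classes was also computed. MII levels defined the classes, so their shares at MII follow from that choice. Part of the change after MII may follow from it too, and how much was not tested. The 959 genes at 100 TPM or more at MII held 80.0% to 80.2% of the summed protein-coding TPM in the MII inputs, 72.6% to 73.1% at L1C and 46.7% to 48.9% at L2C. Genes at 1 to 10 TPM at MII held 4.89% to 5.01% of the pool at L1C and 14.9% to 15.8% at L2C. Genes at the MII floor held 0.0197% to 0.0213% at MII, 0.508% to 0.521% at L1C and 3.99% to 4.16% at L2C. No L1C value overlapped an L2C value in any of the 5 classes. TPM here is per length of the whole gene span, introns included.

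**Figure D4:**
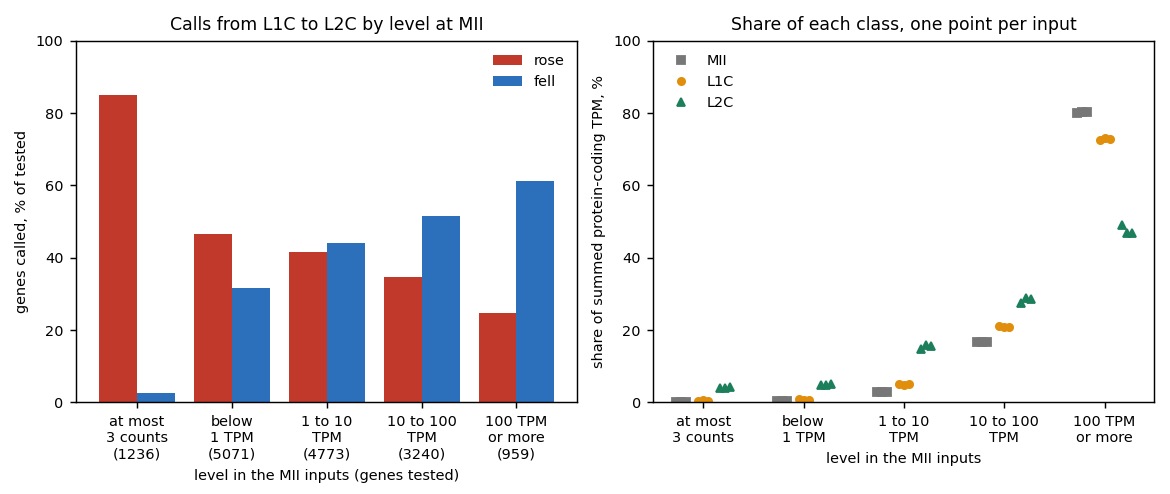
Left, the percent of tested protein-coding genes that rose (red) or fell (blue) from L1C to L2C by level in the MII inputs, with the number tested in brackets. Right, the percent of the summed protein-coding TPM held by each class, 1 point per input (grey squares MII, orange circles L1C, green triangles L2C), where the class of 100 TPM or more goes from 80.0% to 80.2% at MII to 46.7% to 48.9% at L2C.

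The share of genes that rose was larger among short genes. Protein-coding genes were put into 5 equal groups by span. In the group with the shortest spans (up to 8276 bases), 58.6% of 3056 rose and 26.8% fell (median log2 change 1.42). In the group with the longest spans (77728 bases or more), 25.5% rose and 55.6% fell (median -0.72), and the 3 groups between lay in order. The shortest group had the larger share of risen genes within each class by level at MII. Among genes at the MII floor 90.0% of the shortest and 66.2% of the longest rose, at 1 to 10 TPM 56.5% and 20.8%, and at 10 to 100 TPM 50.4% and 10.0%. Above 100 TPM the longest group held only 5 genes. By exon number, 58.8% of 369 single-exon genes and 38.5% of 1321 genes with 25 exons or more rose. Counts came from whole spans, so reads of introns and of unspliced RNA are part of each value, and their part in this order was not tested.

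**Figure D5:**
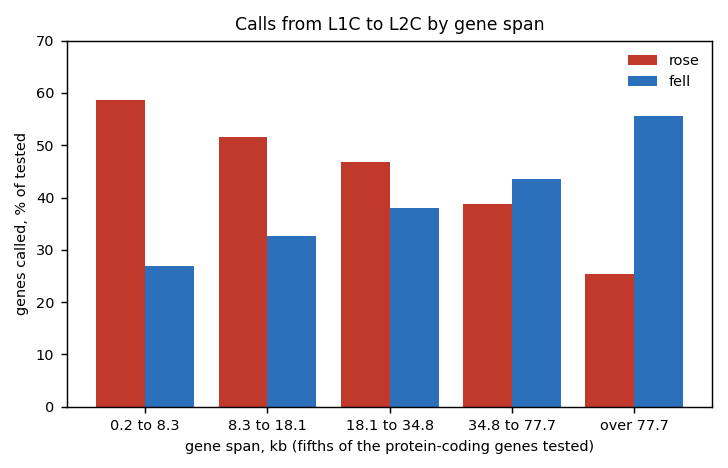
Percent of tested protein-coding genes that rose (red bars) or fell (blue bars) from L1C to L2C in 5 equal groups by gene span in kb. The share that rose goes from 58.6% in the shortest group to 25.5% in the longest, and the share that fell from 26.8% to 55.6%.

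The Y chromosome gives a view of transcription from the father's genome, since an oocyte carries no Y. Of 12 protein-coding Y genes tested 11 rose and 1 fell, beside 44.2% and 39.3% of all protein-coding genes. Y genes near 0 at MII and L1C pass the filter on low counts mainly through the L2C inputs, so the count that rose is largely set by that filter. The Y genes named here were picked after their values were seen. *Uty*, a histone demethylase paralog, had 0, 0 and 0.169 CPM at MII, and 0.211, 0.464 and 0.27 CPM in the L1C inputs and 23.1, 13.6 and 18 in the L2C inputs (log2 change 5.84 ± 0.40 SE, edgeR adjusted p = 4.97e-09). *Eif2s3y*, a subunit of initiation factor eIF2, had 0.0846, 0.278 and 0.108 CPM in the L1C inputs and 7.19, 4.38 and 5.44 in the L2C inputs. *Usp9y*, a deubiquitinase, was at 1.31, 0.882 and 0.916 CPM at L1C and 9.52, 6.81 and 8.55 at L2C, and *Kdm5d*, a histone demethylase, at 1.18, 0.882 and 0.863 and 3.11, 2.71 and 2.66. *Gm21244* was the one that fell, from 1.65, 2.83 and 1.83 to 1.32, 0.666 and 1.34 CPM, and it had a mean of 0.288 CPM at MII. Copies of Y genes on other chromosomes may share reads with them. *Xist*, the RNA that coats the inactive X, had 0.804, 0.278 and 0.323 CPM in the L1C inputs and 4.83, 4.62 and 3.57 in the L2C inputs and a MII mean of 0.0166 CPM. Its span overlaps that of its antisense partner *Tsix*, and their reads may not be separable.

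By autosome, the share of protein-coding genes that rose ranged from 33.6% of 559 on chromosome 13 to 52.5% of 1197 on chromosome 11, and on the X it was 41.8% of 545. Runs of neighbours were counted as 5 or more successive tested protein-coding genes called in 1 direction with a log2 change above 2 (26.7% of genes rose and 16.1% fell by that much). There were 68 such runs of risen and 16 of fallen genes. Near-identical copies count as separate neighbours, and 5 of the risen runs, those on chromosomes 3 and 12 among them, held genes with values identical to another's. The longest runs, which were looked up after the calls, included gene families. On chromosome 3 a run of 14 risen genes (93651542 to 94332540) held *Tdpoz1* to *Tdpoz5*, also counted in the burst list, with predicted genes and *Them4*, and its median log2 change was 7.87. On chromosome 12 a run of 9 (87618869 to 87919857) held *BB287469*, *Gm4027*, *Gm2016* and *Gm2022*, all counted above in the burst list, and 5 other predicted genes (median 4.57). Chromosome 7 had a run of 11 genes from *Ppp6r1* to *Rpl28* (4631495 to 4795066). Of the fallen runs, 15 genes on chromosome 9 (109095389 to 109790670) were 14 members of the oocyte Fbxw family and *Plxnb1* (median -3.28), and 8 on chromosome 5 (120648812 to 120921652) held 6 Oas1 genes, *Oas3* and *Rasal1* (median -3.95). All 15 genes of the Fbxw run had at least 1 exon CPM in the Ctrl L2C libraries.

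Genes of other types were called about as often. Of 4624 tested, 2020 (43.7%) rose and 1721 (37.2%) fell. Among the 8 types with 100 genes or more tested, only lincRNAs (long intergenic noncoding RNAs) had more decreases than increases, with 712 of 1462 fallen and 481 risen (median log2 change -0.76). Of 933 processed pseudogenes 528 rose and 246 fell (median 1.38), and of 966 antisense genes 423 rose and 342 fell. *AC132367.1* had 0.0846, 0.139 and 0.162 CPM in the L1C inputs and 1152, 1167 and 1258 in the L2C inputs, the smallest p of any gene (edgeR adjusted p = 3.15e-14), and 1133 exon CPM on average in the Ctrl libraries. *Gm4850* rose from 0.381, 0.186 and 0.377 to 304, 313 and 344 CPM and *Gm28645* from 0.296, 0.186 and 0.377 to 150.0, 155 and 161 CPM. *Gm44710*, an antisense gene, rose from 0.846, 0.975 and 0.916 to 182, 197 and 172 CPM but had no exon count in the Ctrl libraries, and it overlaps *Med29* and *Zfp36*, which rose by 7.84 and 3.30 (both named after their values were seen). Among those that fell were *4933427D06Rik*, with 1063, 877 and 1067 CPM in the L1C inputs and 24, 27.7 and 23.2 in the L2C inputs, and *A730082K24Rik*, with 988, 764 and 702 CPM in the L1C inputs and 37.3, 29.1 and 38.5 in the L2C inputs. Both were lower at MII than at L1C, with MII means of 528 and 124 CPM. *Gm47432* and *2010001K21Rik* also fell, with log2 changes of -4.72 and -3.97.

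Exon counts of the Ctrl L2C libraries, from other embryos and another counting method, were set beside the calls, although CPM over exons and over spans are different scales. Of 6759 mRNAs that rose, 5603 (82.9%) had at least 1 exon CPM on average, beside 75.9% of all tested. The share was 81.6% for the 967 that rose more than 32-fold, and 53.4% for the 365 that rose from at most 3 counts in every L1C input. It was 91.7% for increases under 2-fold, above that of each steeper class, 73.4% for all mRNAs that fell and 63.2% for those not called. Of the mRNAs that fell, the share went from 88% for decreases under 2-fold to 72.1%, 61.7% and 45.4% for steeper ones. Among the named genes, the exon means of *Alppl2*, *Spic*, *Gabpa* and *Selenos* were 286, 799, 509.6 and 1566 CPM, and those of *Ifit1bl2*, *Rgs2*, *Nlrp4f* and *Zar1* were 5.52, 21.5, 88.2 and 10.3 CPM. Other genes that fell had high exon counts at L2C, with 1401 CPM for *Ccnb1*, 916 for *Btg4*, 438 for *Ldhb* and 212 for *Mphosph10*. Over all named genes the exon mean ranged from 0.138 to 7122 CPM in the 56 that fell (median 34.2) and from 0 to 35007 CPM in the 52 that rose (median 239). *Hs3st5* and *Ash2l*, among the 5 highest at both stages, fell slightly over their spans (log2 changes -0.33 and -0.33, adjusted p = 0.027 and 0.017 by edgeR, lost under DESeq2 with adjusted p = 0.243 and 0.151), yet had 3.13 and 41.1 exon CPM. *Spin1*, a histone reader, and *Mdm4*, a p53 inhibitor, were abundant by both counts, with 1807 and 3982 CPM over spans and 7122 and 6424 CPM over exons.

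Values at 0 in 1 stage were checked against overlapping genes, and apart from *Eif4enif1* the examples were chosen after their values were seen. Of the mRNAs that rose, 365 had at most 3 counts in every L1C input (41.4% with a span overlapping another gene, beside 53.2% of all tested), and of those that fell 102 had at most 3 counts in every L2C input (55.9%). *Eif4enif1* (4E-T), a repressor of stored mRNA, had 429, 393 and 515 CPM at L1C and 0 in every L2C input, at least 4181-fold lower against 3 counts per library, but 148 exon CPM in the Ctrl libraries. *Drg1*, which overlaps it on the other strand, rose from 118, 96.7 and 94.5 to 458, 459 and 493 CPM. *Cnot9* of the CCR4-NOT complex had 30.2, 33.5 and 51 CPM at L1C and 0 at L2C, with 60.7 exon CPM, and *Usp37*, which overlaps it on the other strand, rose by 1.46 on the log2 scale. *Dnah8*, a ciliary dynein, had 108, 112 and 130.2 CPM at L1C, 0 at L2C and 14.6 exon CPM, but all 5 tested genes overlapping it on the other strand fell, by 0.71 to 4.36 on the log2 scale. *Prm1*, a sperm protamine, had 0 at L1C and 58.5, 72.4 and 54.9 CPM at L2C, at least 434-fold higher, with no exon count in the Ctrl libraries, while the overlapping pseudogene *Gm10343* rose by 7.57. The part of the overlap in these values was not tested, and the same genes stand in the counts above. Among protein-coding genes whose span overlaps no other gene, 45.5% rose and 38.6% fell.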

How the data were processed

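The authors quantified the input libraries with kallisto against whole gene spans of GRCm38, introns included, and deposited estimated counts and TPM per gene. For the Cas13d experiment the authors trimmed with Trimmomatic, aligned with HISAT2 and deposited featureCounts counts over exons. The version of kallisto is not given in the sources used here. Antibody-bound and knockdown libraries were not used here. Estimated counts of the 9 inputs (3 per stage) were rounded, filtered with filterByExpr, scaled by TMM and fitted with edgeR 4.0.16 (R 4.3.3, quasi-likelihood test, 6 residual degrees of freedom). The L2C minus L1C contrast was adjusted by Benjamini-Hochberg over 19903 genes and called at 0.05. TPM served for classes by level at MII and shares of the pool. Exon counts were scaled to CPM and averaged over 3 libraries, with no test across experiments. Every pair of replicates differed by more than sampling noise. A fold against a stage with at most 3 counts in every library was given as a bound, computed at 3 counts per library.

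Symbols and types came from GENCODE M21 and promoters from RefSeq. The members and gene lists were chosen with earlier results of these data known. Named genes were the 6 protein-coding genes and 4 other genes with the smallest p in each direction (log2 change above 1, groups of CPM apart, mean of 10 counts or more), up to 2 called members per direction of each list, the 5 highest protein-coding genes at L1C and at L2C, textbook genes of the transition, and any member of a list with fewer than 4 called. Alternatives were DESeq2 1.42.0, library size or DESeq2 size factors in place of TMM, no filter, the 6 L1C and L2C inputs alone, a replicate block, a log2 threshold of 1, genes whose spans overlap no other, and leaving out each input. The script was tested on simulated data.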

Additional observations from a re-analysis of the deposited data

How the results depend on the processing

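The 108 named genes gave 1296 values under the alternative fits. Of these, 1286 kept their direction and call and none reversed. The other 10, all of *Hs3st5* or *Ash2l*, lost the call with the same direction. The log2 threshold of 1 and the limit to spans that overlap no other gene were not applied to named genes. *Ythdc1*, *Klf17*, *Dnajb1*, *Mphosph10*, *Dnmt1* and *Mdm4* also changed by less than 1 on the log2 scale, and would not pass that threshold. The median log2 change of all genes was 0.17 under TMM, 0.32 with DESeq2, 0.26 with library size alone and 0.30 with DESeq2 size factors. List medians near 0 also moved when 1 input was left out. They ranged from -0.45 to -0.12 for mRNA decay and poly(A) control. The ranges were 0.03 to 0.18 for DNA replication licensing and 0.11 to 0.35 for heat shock. Of 494 counts of list members, 7 moved by more than 1.5 times, all with the log2 threshold of 1: those that fell in ribosome biogenesis (4 to 1), initiation factors (7 to 3), splicing (11 to 4), the proteasome (13 to 7), DNA replication (10 to 4) and heat shock (7 to 2), and those that rose among maternal chromatin factors (8 to 5). The number of mRNAs at most at 3 counts at MII that fell, 31, was 85 with DESeq2 and 233 with no filter, and 37 to 63 with 1 input left out (49 without L1C replicate 2, 56 without L2C replicate 1, 63 without L2C replicate 2 and 54 without L2C replicate 3); the filter itself sets how many such genes are tested, and the cause was not tested otherwise. Of mRNAs at 100 TPM or more at MII, 237 rose, and 154 did so with a log2 change above 1. With the replicate number as a replicate block, 6693 mRNAs rose and 5919 fell, and 1978 and 1676 other genes. The numbers did not pair the inputs, as deviations of same-numbered L1C and L2C inputs correlated at 0.32, -0.04 and -0.14. A gene at 3 counts or fewer in a stage has no fold beyond its bound at these depths.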
